A study of Homo sapiens with 17 samples.

Results

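Interferon-stimulated genes (ISGs) are the genes that cells switch on after they sense an interferon. A set of 47 genes was followed here by name in human senescent fibroblasts with and without a knockdown of SMARCA4. It holds ISGs and the 2 interferon receptor subunits IFNAR1 and IFNAR2. The 47 genes were found by their Ensembl identifiers among the 62754 genes of each count table, and all 47 had an entry. After a filter on low counts, 46 of them were among the 19473 genes tested, whereas RTP4 was too low to judge. The cells were IMR90 ER:RAS, human lung fibroblasts infected with a retrovirus for RAS G12V joined to the ligand-binding part of an oestrogen receptor. The drug 4-hydroxytamoxifen (4OHT) thereby activates RAS, and the cells then become senescent. All 3 groups carried this construct, and all were transfected with an siRNA the day before treatment and collected at day 7. The groups were DMSO with a non-targeting siRNA (DMSO siNT, n = 5), 4OHT with a non-targeting siRNA (4OHT siNT, n = 6) and 4OHT with an siRNA against SMARCA4 (4OHT siSMARCA4, n = 6). There was no DMSO group with siSMARCA4, so an effect of the knockdown in growing cells could not be measured. Titles further give an siRNA number (2 or 4) and end in the tag V or VM, whose meanings the labels do not state. Libraries are named below by these labels, as in 2-1VM for siRNA number 2 and replicate 1VM.

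Type I interferons bind a receptor made of IFNAR1 and IFNAR2, whose associated JAK kinases phosphorylate STAT proteins. Phosphorylated STAT2 joins IRF9 in a complex that binds the interferon-stimulated response element, a short DNA motif near the start of many ISGs, and interferon regulatory factors such as IRF1 and IRF7 bind related motifs. The products of the ISGs bind or cut viral RNA, block the entry and exit of viruses at membranes, attach ubiquitin or the ubiquitin-like protein ISG15 to other proteins, and tune the signalling itself. In senescent cells this programme is known as a possible outcome of the sensing of cytosolic DNA.

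The start sites of the genes were read first, to count how many held the motif. RefSeq promoter windows on GRCh38.p14, from 250 bases before to 50 bases after the start, were matched for 38 of the 47 genes. The core of the element, GAAA, any 2 bases and GAAA again on either strand, was present in 26 of the 38 windows (68.4%), against 996 of 27305 windows of all genes (3.65%). With the last A left off, it was again in 26 windows (68.4%), against 2264 of all windows (8.29%). The 250 bases before the start are shown for 4 genes that the comparisons below turn on, namely IFIT1, which was lower in senescence, IFIT5, which was lower in senescence and higher on knockdown, and SAMD9L and IFITM1, which were lower in both. Capitals mark the motif.
IFIT1 (chr10:89392373-89392622, plus strand): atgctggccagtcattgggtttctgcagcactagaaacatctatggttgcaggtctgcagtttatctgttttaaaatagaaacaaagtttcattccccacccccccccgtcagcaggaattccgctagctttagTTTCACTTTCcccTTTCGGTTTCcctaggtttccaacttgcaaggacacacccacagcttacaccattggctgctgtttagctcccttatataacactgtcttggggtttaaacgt
IFIT5 (chr10:89414318-89414567, plus strand): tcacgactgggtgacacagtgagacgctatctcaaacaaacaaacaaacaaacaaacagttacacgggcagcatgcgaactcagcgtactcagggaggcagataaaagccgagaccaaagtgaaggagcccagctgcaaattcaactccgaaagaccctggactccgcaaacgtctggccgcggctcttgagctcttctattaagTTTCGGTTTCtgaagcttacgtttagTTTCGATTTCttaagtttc
SAMD9L (chr7:93148386-93148635, minus strand): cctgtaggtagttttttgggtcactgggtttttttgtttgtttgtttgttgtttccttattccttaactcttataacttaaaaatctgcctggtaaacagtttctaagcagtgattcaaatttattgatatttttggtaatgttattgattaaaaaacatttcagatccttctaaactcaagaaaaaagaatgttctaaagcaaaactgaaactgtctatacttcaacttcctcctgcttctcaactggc
IFITM1 (chr11:313790-314039, plus strand): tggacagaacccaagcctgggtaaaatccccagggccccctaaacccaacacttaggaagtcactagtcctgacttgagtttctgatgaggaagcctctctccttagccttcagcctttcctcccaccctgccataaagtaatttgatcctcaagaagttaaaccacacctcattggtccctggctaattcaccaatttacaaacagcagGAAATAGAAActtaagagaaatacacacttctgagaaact
IFIT1 held the motif at 116 and 103 bases before its start and IFIT5 at 45 and 19, with another match that began 4 bases before the start and ran past it. IFITM1 held it at 40 bases before the start, with another match beginning 6 bases before it. SAMD9L held no match in its window. These are matches of letters and not measured binding sites.

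Totals ran from 39.11 M to 68.98 M counts per library (median 52.65 M). Levels are given as CPM, the counts of a gene per 1e+06 counts of its library after scaling by edgeR's TMM factors. SMARCA4, the targeted gene, checked the labels: it was at 268 ± 13.2 CPM (SD, n = 6) in 4OHT siNT and 88.1 ± 22.8 CPM (n = 6) in siSMARCA4, with no overlap of libraries. Of 8 fibroblast markers, all were tested and their summed level ran from 22335 to 26759 CPM in DMSO siNT, 13443 to 17535 in 4OHT siNT and 7558 to 10888 in siSMARCA4. In senescence 6 of the 8 were called lower and 1 higher, and on knockdown 6 were called lower. Of all genes tested, 27.4% were called lower in senescence and 13.8% on knockdown. The summed level of 6 immune markers was at most 0.497 CPM in any library, and 1 of the 6 was tested. The sum of 5 epithelial markers ran from 0.738 to 1.53 CPM in DMSO siNT, 0.345 to 0.625 in 4OHT siNT and 0.473 to 0.939 in siSMARCA4, with KRT5 and KRT14 at 0 in every library. The sum of 4 endothelial markers ran from 3.44 to 10.6, 9.51 to 13.7 and 6.46 to 10.1 CPM in the same order, and of the 3 tested, 2 were called higher in senescence and 1 lower on knockdown. The fibroblast sum thus moved with all groups without overlap, the epithelial sum was lower in 4OHT siNT than in DMSO siNT without overlap, and the endothelial sum shifted with overlap between DMSO siNT and 4OHT siNT. The part of these markers in the results below was not tested. In bulk RNA, fewer cells of a kind and less RNA per cell cannot be told apart. Since no label says that replicates were separate cultures, the p-values measure only the spread between these libraries, which may be technical.

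The comparison of 4OHT siNT with DMSO siNT asked how the ISGs stood in senescent cells. The set leaned to lower values: 25 of the 46 genes tested (54.3%) were called lower by edgeR at an adjusted p under 0.05, among them IFIT1, IFIT2, NMI and GBP1, which were 6.49-fold to 14.5-fold lower. By contrast, 5 genes were called higher, namely ISG20, CMPK2, IRF1 and the 2 receptor subunits IFNAR1 and IFNAR2. Among all genes tested, 27.4% were called lower and 27.0% higher. The median log2 fold change was -0.55 over the 46 genes and 0.00 over all genes. The libraries of both groups did not overlap for 20 of the genes called lower and for 4 of those called higher, where 20% and 19.6% of all genes did not overlap in the same directions.

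The comparison of 4OHT siSMARCA4 with 4OHT siNT asked how cells under 4OHT differed with the knockdown. The siRNA was given the day before 4OHT. Changes in how senescence developed and changes in cells already senescent thus cannot be told apart. Few genes of the set were called. Of the 46 genes, 4 were called higher (8.70%), IFI35, ISG20, PARP12 and IFIT5, and 6 were called lower (13.0%), BST2, EPSTI1, IFITM1, TRIM22, SAMD9L and IFITM2. Among all genes tested, 10.4% were called higher and 13.8% lower, so both shares of the set were close to those of the transcriptome. The lower share changed when the V and VM tags were taken into account, and the cause was not tested. All 4OHT siNT libraries and 3 of 6 siSMARCA4 libraries were VM. With the tag as a covariate 11 genes (23.9%) were called lower, against 15.6% of all genes. Of the 46, 36 lay below 0, with a median of -0.29 against -0.03 over all genes. Over the VM libraries alone 9 of 45 genes (20%) were called lower, against 15.3% of all genes, with a median of -0.20. A fit with a term for each group and tag called 8 lower between the VM libraries, with a median of -0.22. The share of all genes called in that fit was not counted, so its 8 calls have no background beside them. The covariate gives every group the same V minus VM difference. Fitted by group, its median over the set was 0.49 in DMSO siNT and 0.23 in siSMARCA4. Without the tag, the median log2 fold change was -0.11 over the set and -0.02 over all genes. On GRCh38 these genes are IFI35 (ENSG00000068079) at chr17:43006740-43014456, ISG20 (ENSG00000172183) at chr15:88635670-88656483, PARP12 (ENSG00000059378) at chr7:140023749-140062951, IFIT5 (ENSG00000152778) at chr10:89414568-89421605, BST2 (ENSG00000130303) at chr19:17402939-17405630, EPSTI1 (ENSG00000133106) at chr13:42886388-42992271, IFITM1 (ENSG00000185885) at chr11:310041-315272, TRIM22 (ENSG00000132274) at chr11:5689610-5737089, SAMD9L (ENSG00000177409) at chr7:93130056-93148385 and IFITM2 (ENSG00000185201) at chr11:303655-309397. Libraries did not overlap for 1 gene that was higher, IFIT5, and for 3 that were lower, SAMD9L, TRIM22 and IFITM2, where 4.54% and 7.49% of all genes did not overlap. The 2 comparisons share the 4OHT siNT libraries, so each gene's values are given for both and no overlap between them is tested.

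**Figure D1:**
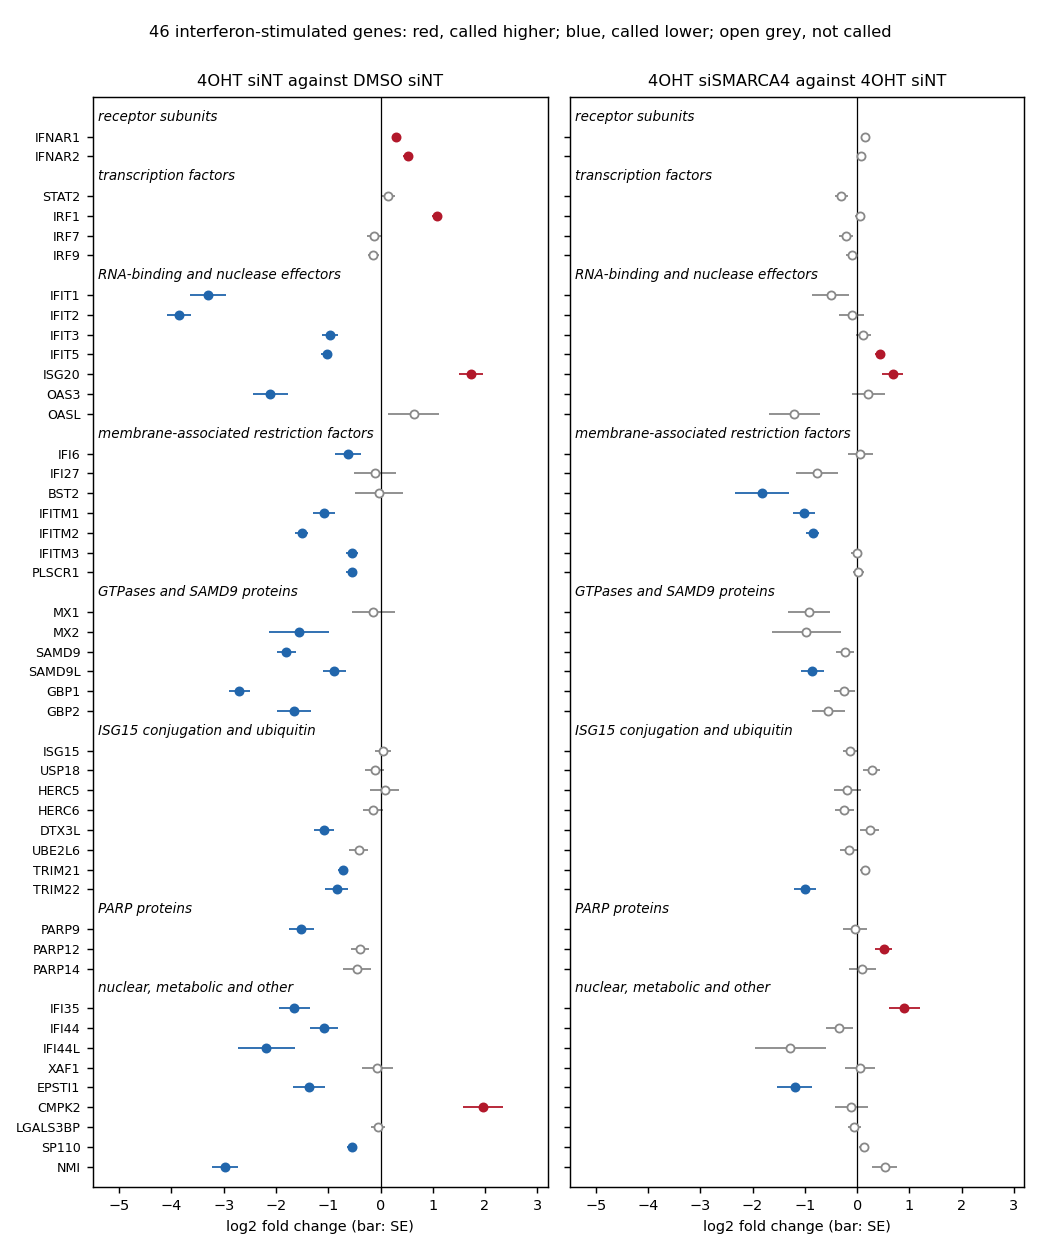
Log2 fold changes of the 46 genes tested, grouped by role, with SE as bars, in 4OHT siNT against DMSO siNT (left) and in 4OHT siSMARCA4 against 4OHT siNT (right). Filled red points were called higher and filled blue points lower, and 25 genes lie on the lower side as calls on the left, against 6 on the right.

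Sorted by both comparisons, the genes fell into the following groups. ISG20 was called higher in both comparisons. IRF1, CMPK2, IFNAR1 and IFNAR2 were called higher in senescence and were not called on knockdown. IFIT5 and IFI35 were lower in senescence and higher on knockdown. SAMD9L, EPSTI1, TRIM22, IFITM1 and IFITM2 were lower in both, and 18 genes were called lower in senescence and not called on knockdown. PARP12 was called higher and BST2 lower on knockdown and neither was called in senescence, and 14 genes were called in neither comparison. The share of all genes in each of these groups was not counted, so the sizes of the groups cannot be set against the transcriptome. Whether a gene's effects differed between the comparisons was not tested.

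**Figure D2:**
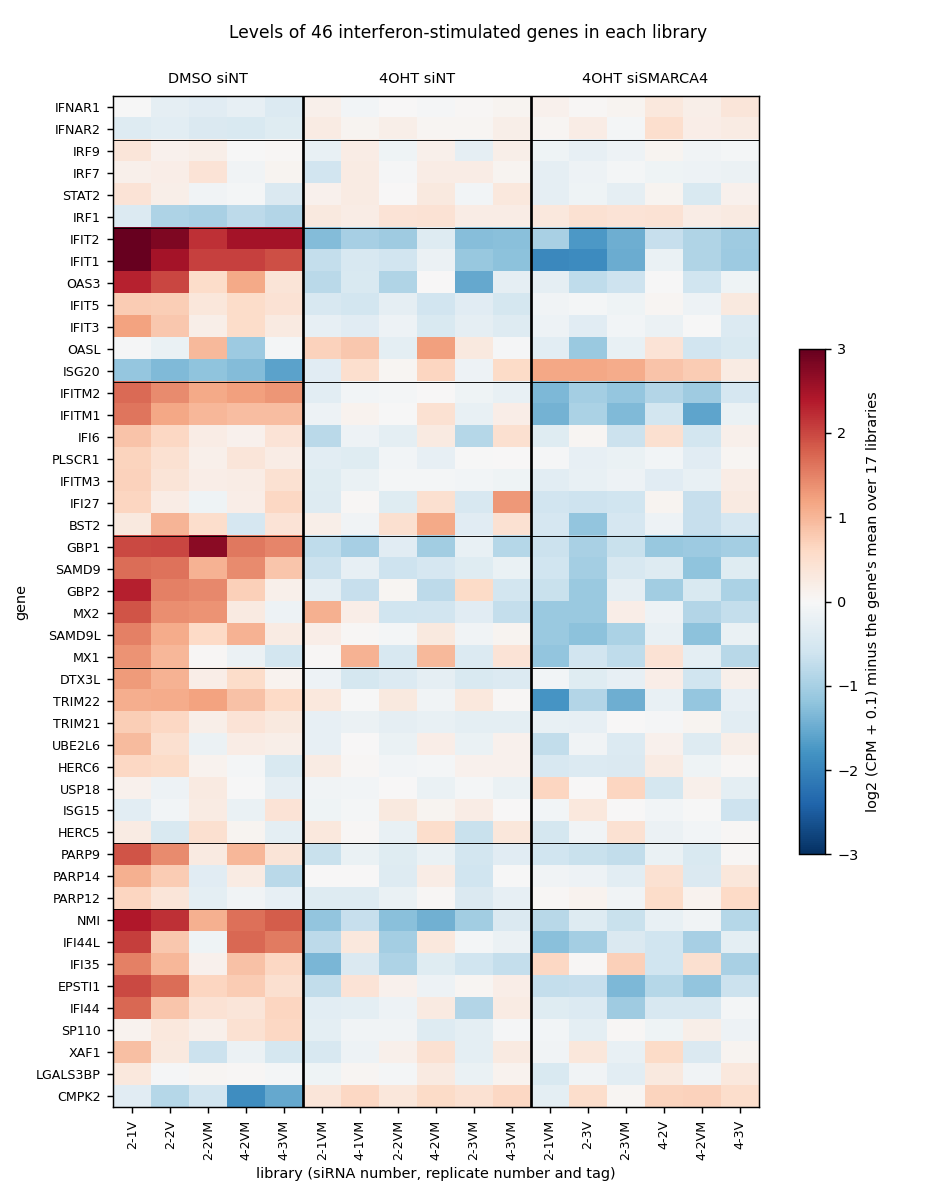
Level of each of the 46 genes in each of the 17 libraries, as log2 (CPM + 0.1) minus the gene's mean over libraries, from blue (below the mean) to red (above it), grouped by role. DMSO siNT 2-1V, the left column, was the highest DMSO library for 36 of the 46 genes.

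The receptor subunits were both higher in senescence. IFNAR1 was at 81.4, 68.0, 64.6, 69.0 and 62.0 CPM in the DMSO siNT libraries 2-1V, 2-2V, 2-2VM, 4-2VM and 4-3VM, an order kept for every gene below. In 4OHT siNT it ran from 78.4 to 91.8 CPM (median 84.1) and in siSMARCA4 from 83.8 to 106 (median 92.0). A single DMSO library, 2-1V, lay within the range of 4OHT siNT, and the log2 fold change was 0.29 (SE 0.08, edgeR adjusted p 0.00416). IFNAR2 was at 8.20, 8.70, 7.93, 7.86 and 8.41 CPM in DMSO siNT and ran from 11.2 to 12.7 CPM (median 11.7) in 4OHT siNT. Its groups did not overlap, and it was 1.44-fold higher (log2 change 0.52, SE 0.09, edgeR adjusted p 5.16e-05). On knockdown, the log2 fold change was 0.15 (SE 0.08) for IFNAR1 and 0.08 (SE 0.08) for IFNAR2, neither past the threshold.

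Of the 4 transcription factors, IRF1 alone was called in the fit with 1 term per group. IRF1, which activates ISGs and inflammatory genes, was at 30.5, 21.0, 20.5, 23.4 and 21.9 CPM in DMSO siNT, ran from 47.2 to 54.4 CPM (median 48.3) in 4OHT siNT and from 47.4 to 55.7 (median 51.8) in siSMARCA4. Every 4OHT library lay above every DMSO library, a 2.12-fold rise in 4OHT siNT (log2 change 1.09, SE 0.09, edgeR adjusted p 1.36e-08), and the 4OHT groups overlapped. STAT2 and IRF9, the subunits of the ISG-activating complex, gave log2 fold changes of 0.15 and -0.14 in senescence and -0.30 and -0.11 on knockdown. With the V or VM tag as a covariate STAT2 was called in both comparisons. It was then at 0.33 in senescence (edgeR adjusted p 0.0103) and -0.52 on knockdown (edgeR adjusted p 0.00112). STAT2 was at 80.2 ± 17.3 CPM (SD, n = 5) in DMSO siNT, 88.7 ± 9.66 (n = 6) in 4OHT siNT and 71.8 ± 11.1 (n = 6) in siSMARCA4. IRF9 was at 9.08 ± 0.934, 8.23 ± 1.24 and 7.64 ± 0.583 CPM in the same order. IRF7, which amplifies interferon production, was at 3.78 ± 0.512, 3.48 ± 0.687 and 3.01 ± 0.159 CPM.

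Among the proteins that bind or degrade RNA, IFIT2 and IFIT1 of the IFIT family showed the deepest falls of the set in senescence. IFIT proteins recognise the ends of foreign RNA and hold back its translation. IFIT2 was at 13.3, 10.4, 6.77, 8.50 and 8.44 CPM in DMSO siNT and ran from 0.518 to 1.05 CPM (median 0.577) in 4OHT siNT, which made it 14.5-fold lower (log2 change -3.85, SE 0.24, edgeR adjusted p 1.21e-10). IFIT1 was at 11.6, 6.73, 4.93, 4.88 and 4.53 CPM in DMSO siNT and ran from 0.417 to 0.963 CPM (median 0.672) in 4OHT siNT, 9.89-fold lower (log2 change -3.31, SE 0.35, edgeR adjusted p 1.82e-07). Both also lay below every DMSO library in siSMARCA4, where IFIT2 ran from 0.357 to 0.834 CPM (median 0.645) and IFIT1 from 0.217 to 0.951 (median 0.398). Neither passed the threshold between the 4OHT groups, at log2 fold changes of -0.10 (SE 0.23) for IFIT2 and -0.51 (SE 0.35) for IFIT1.

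The other IFIT genes fell less. IFIT3 was at 18.2, 13.7, 8.78, 11.4 and 9.48 CPM in DMSO siNT and ran from 5.69 to 6.98 CPM (median 6.30) in 4OHT siNT, 1.96-fold lower (edgeR adjusted p 1.94e-05). It ran from 5.84 to 7.79 CPM (median 6.96) in siSMARCA4, over the range of 4OHT siNT. IFIT5 was at 30.6, 29.8, 22.5, 26.3 and 24.1 CPM in DMSO siNT, ran from 12.01 to 14.9 CPM (median 12.6) in 4OHT siNT and from 16.1 to 21.7 (median 16.9) in siSMARCA4. The 3 groups of IFIT5 did not overlap. It was 2.05-fold lower in senescence (log2 change -1.03, SE 0.10, edgeR adjusted p 5.51e-08) and 1.36-fold higher on knockdown (log2 change 0.44, SE 0.10, edgeR adjusted p 0.00263), and its level in siSMARCA4 stayed below that of every DMSO library. Over the number 2 libraries alone its knockdown difference was 0.30 and not called (edgeR adjusted p 0.102).

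ISG20, a 3' to 5' exonuclease that acts on single-stranded RNA, was the gene called higher in both comparisons. It was at 0.611, 0.537, 0.590, 0.542 and 0.420 CPM in DMSO siNT, ran from 1.15 to 2.36 CPM (median 1.84) in 4OHT siNT and from 1.78 to 3.45 (median 3.04) in siSMARCA4. Every 4OHT library lay above every DMSO library, and the log2 fold change was 1.73 in senescence (SE 0.23, edgeR adjusted p 2.68e-06). On knockdown it was 0.68 (SE 0.20, edgeR adjusted p 0.0178), with the groups overlapping. The 3 siSMARCA4 libraries of siRNA number 2 were at 3.33 to 3.45 CPM and the 3 of number 4 at 1.78, 2.58 and 2.75 CPM, while the siNT libraries of number 2 were at 1.15, 1.33 and 1.55 CPM and those of number 4 at 2.13, 2.27 and 2.36 CPM. The effect was thus 1.34 on the log2 scale with number 2 and 0.07 with number 4, a difference of 1.27 (SE 0.26, edgeR adjusted p 0.0326) and the single one called among the 46 genes in this test, in which 0.128% of all genes were called in the same direction and 0.935% in the other.

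OAS3, an enzyme that makes the 2'-5' oligoadenylates that activate RNase L, was at 12.1, 9.79, 3.52, 5.33 and 3.14 CPM in DMSO siNT and ran from 0.759 to 2.42 CPM (median 1.52) in 4OHT siNT. It was 4.30-fold lower (log2 change -2.11, SE 0.33, edgeR adjusted p 2.77e-05) and ran from 1.37 to 2.37 CPM (median 1.75) in siSMARCA4. The V libraries were the highest of DMSO siNT, and the log2 fold change was -1.37 over VM libraries alone, -2.96 over number 2 alone and -1.103 over number 4 alone, each still called lower. The catalytically inactive relative OASL stayed low, at 0.212 ± 0.165 CPM (SD, n = 5) in DMSO siNT, 0.332 ± 0.169 (n = 6) in 4OHT siNT and 0.140 ± 0.0851 (n = 6) in siSMARCA4.

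The membrane-associated restriction factors divided by family member. IFITM proteins sit in the plasma and endosomal membranes and block the fusion of enveloped viruses. IFITM2 was at 82.1, 68.2, 56.1, 59.7 and 63.7 CPM in DMSO siNT, ran from 20.5 to 25.4 CPM (median 23.5) in 4OHT siNT and from 9.84 to 18.0 (median 12.2) in siSMARCA4. The 3 groups did not overlap, and IFITM2 was 2.85-fold lower in senescence (log2 change -1.51, SE 0.13, edgeR adjusted p 9.14e-09). On knockdown it was 1.80-fold lower than in 4OHT siNT (log2 change -0.85, SE 0.12, edgeR adjusted p 0.000115). IFITM1 was at 19.3, 14.1, 12.6, 12.05 and 12.02 CPM in DMSO siNT, ran from 5.36 to 8.57 CPM (median 6.497) in 4OHT siNT and from 2.03 to 5.47 (median 2.81) in siSMARCA4. It was lower in senescence by 1.08 on the log2 scale, at -1.08 (SE 0.22, edgeR adjusted p 0.000302) and on knockdown by -1.01 (SE 0.21, edgeR adjusted p 0.00239), where 1 siSMARCA4 library, 4-3V, lay within the range of 4OHT siNT.

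IFITM3 behaved otherwise on knockdown. It was at 261, 211, 185, 187 and 221 CPM in DMSO siNT, ran from 125 to 156 CPM (median 149) in 4OHT siNT and from 127 to 189.7 (median 139) in siSMARCA4. It was 1.46-fold lower in senescence (log2 change -0.55, SE 0.11, edgeR adjusted p 0.000252), and on knockdown the log2 fold change was -0.01 (SE 0.10). The IFITM genes are close in sequence, and how the counting divided shared reads among them was not tested.

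BST2, or tetherin, holds budding virions at the cell surface. It had the steepest fitted fall of the called genes on knockdown but rested on few reads: 3 to 22 counts per library in 4OHT siNT, 0 to 7 in siSMARCA4 and 3 to 18 in DMSO siNT. Its level was 0.175, 0.358, 0.226, 0.0581 and 0.201 CPM in DMSO siNT, ran from 0.0785 to 0.3996 CPM (median 0.181) in 4OHT siNT and from 0 to 0.102 (median 0.0583) in siSMARCA4. The groups overlapped, and the log2 fold change was -1.81 (SE 0.52, edgeR adjusted p 0.016). Without the highest 4OHT siNT library, 4-2VM, it was -1.48 and no longer passed the threshold (edgeR adjusted p 0.0510).

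IFI6, a mitochondrial and endoplasmic reticulum protein that counters cell death, was at 12.2, 10.2, 7.72, 7.30 and 8.84 CPM in DMSO siNT and ran from 3.66 to 9.28 CPM (median 5.68) in 4OHT siNT. The groups overlapped at an edgeR adjusted p of 0.0421, and the call was lost in 7 of the fits that left out 1 library. PLSCR1, a membrane protein that restricts several viruses, was at 14.2, 12.3, 9.85, 11.5 and 10.5 CPM in DMSO siNT and ran from 6.92 to 8.99 CPM (median 7.98) in 4OHT siNT, without overlap (edgeR adjusted p 0.000237). In siSMARCA4, IFI6 ran from 4.23 to 9.40 CPM (median 6.04) and PLSCR1 from 6.98 to 9.28 (median 8.06), both over the range of 4OHT siNT. IFI27 was low, at 0.352 ± 0.0994 CPM (SD, n = 5) in DMSO siNT, 0.325 ± 0.239 (n = 6) in 4OHT siNT and 0.189 ± 0.0902 (n = 6) in siSMARCA4. RTP4 had 18 counts over all DMSO siNT libraries, 2 over all of 4OHT siNT and 4 over all of siSMARCA4, and it was not judged.

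Among the large GTPases and the SAMD9 pair, 5 of 6 genes were called lower in senescence, against 27.4% of all genes, MX1 being the exception. GBP1, a guanylate-binding protein that attacks the membranes around pathogens, was at 50.6, 50.6, 83.4, 37.8 and 34.8 CPM in DMSO siNT and ran from 6.05 to 10.9 CPM (median 7.21) in 4OHT siNT, 6.49-fold lower (log2 change -2.70, SE 0.21, edgeR adjusted p 2.87e-09). GBP2 was at 13.4, 7.44, 7.13, 4.30 and 2.87 CPM in DMSO siNT and ran from 1.44 to 3.87 CPM (median 1.93) in 4OHT siNT, with the groups overlapping (log2 change -1.66, SE 0.33, edgeR adjusted p 0.000282). On knockdown neither was called, and GBP1 ran from 5.74 to 8.09 CPM (median 6.26) and GBP2 from 1.13 to 2.11 (median 1.43).

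SAMD9 and SAMD9L are neighbouring paralogs on chromosome 7 that restrict poxviruses and lower protein synthesis. SAMD9L was at 19.5, 14.8, 10.3, 14.1 and 8.14 CPM in DMSO siNT, ran from 6.31 to 8.37 CPM (median 7.14) in 4OHT siNT and from 2.83 to 5.88 (median 3.29) in siSMARCA4. The 4OHT groups did not overlap, and it was 1.81-fold lower on knockdown (log2 change -0.86, SE 0.22, edgeR adjusted p 0.0083). In senescence it was 1.85-fold lower (edgeR adjusted p 0.00218), and the groups overlapped. Both calls were lost over the number 4 libraries alone (edgeR adjusted p 0.205 on knockdown and 0.126 in senescence). SAMD9 was at 14.3, 13.7, 9.16, 11.8 and 7.87 CPM in DMSO siNT and ran from 2.78 to 3.82 CPM (median 3.24) in 4OHT siNT, 3.48-fold lower (log2 change -1.80, SE 0.18, edgeR adjusted p 9.1e-08). In siSMARCA4 it ran from 1.85 to 3.40 CPM (median 3.00), and its log2 fold change on knockdown was -0.23 (SE 0.17).

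MX1 and MX2 are dynamin-like GTPases that block viral replication, and MX2 was near the limit of the data. It was at 0.855, 0.577, 0.555, 0.213 and 0.134 CPM in DMSO siNT and ran from 0.0568 to 0.441 CPM (median 0.0887) in 4OHT siNT. It was called lower with the groups overlapping (log2 change -1.56, SE 0.58, edgeR adjusted p 0.0288), on 3 to 23 counts per 4OHT siNT library, and lost the call in 11 of the 30 alternative fits, 5 of which left out 1 library. In siSMARCA4 it ran from 0.0188 to 0.196 CPM (median 0.0491). MX1 was at 1.20 ± 0.732 CPM (SD, n = 5) in DMSO siNT, 1.08 ± 0.534 (n = 6) in 4OHT siNT and 0.566 ± 0.292 (n = 6) in siSMARCA4, and passed neither test. MX1 was called in opposite directions in senescence within the siRNA numbers, lower with number 2 (log2 change -1.28, edgeR adjusted p 0.0121) and higher with number 4 (1.31, edgeR adjusted p 0.0225).

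The ISG15 and ubiquitin machinery was divided. In the fit with 1 term per group the ISG15 branch passed neither test: ISG15 itself was at 35.5 ± 7.78 CPM (SD, n = 5) in DMSO siNT, 36.7 ± 4.09 (n = 6) in 4OHT siNT and 33.4 ± 6.54 (n = 6) in siSMARCA4. UBE2L6, its conjugating enzyme, was at 31.0 ± 9.33, 23.2 ± 3.25 and 20.9 ± 4.97 CPM in the same order. The ligases HERC5 and HERC6 were at 0.492 ± 0.153, 0.517 ± 0.171 and 0.458 ± 0.128 CPM and at 2.98 ± 0.914, 2.69 ± 0.239 and 2.26 ± 0.504 CPM. USP18, which removes ISG15 and restrains IFNAR2, was at 8.41 ± 1.24, 7.78 ± 0.445 and 9.42 ± 3.14 CPM. With the V or VM tag as a covariate, UBE2L6 (-0.48, edgeR adjusted p 0.00824) and HERC6 (-0.52, edgeR adjusted p 0.0226) were called lower on knockdown. USP18 was called higher in that fit (0.45, edgeR adjusted p 0.0410), and ISG15 and HERC5 were not called.

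The ubiquitin ligases TRIM21, TRIM22 and DTX3L were lower in senescence. TRIM22, a restriction factor of HIV and influenza virus, was at 60.2, 61.3, 65.3, 52.3 and 42.7 CPM in DMSO siNT, ran from 26.2 to 35.4 CPM (median 32.1) in 4OHT siNT and from 8.28 to 24.2 (median 14.1) in siSMARCA4. The 3 groups did not overlap, with log2 fold changes of -0.84 in senescence (SE 0.22, edgeR adjusted p 0.00327) and -0.996 on knockdown (SE 0.21, edgeR adjusted p 0.0027). Over the number 4 libraries alone the knockdown difference of TRIM22 was -0.43 and not called (edgeR adjusted p 0.238). Within siSMARCA4 TRIM22 was 1.02 higher on the log2 scale in V than in VM (edgeR adjusted p 0.00848). TRIM21, the cytosolic antibody receptor, was at 17.9, 16.7, 12.2, 14.4 and 13.3 CPM in DMSO siNT and ran from 8.71 to 9.47 CPM (median 8.99) in 4OHT siNT, 1.65-fold lower without overlap (edgeR adjusted p 5.76e-06). It ran from 8.68 to 11.5 CPM (median 9.84) in siSMARCA4, over the range of siNT. DTX3L was at 26.3, 22.2, 12.3, 15.7 and 11.6 CPM in DMSO siNT, ran from 7.47 to 9.70 CPM (median 7.99) in 4OHT siNT and from 7.10 to 12.4 (median 9.56) in siSMARCA4, and was 2.12-fold lower in senescence (edgeR adjusted p 8.53e-05).

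The PARP proteins transfer ADP-ribose, and PARP9 works as a complex with DTX3L, whose gene lies head to head with its own. PARP9 was at 18.1, 13.2, 5.92, 9.74 and 6.43 CPM in DMSO siNT and ran from 3.05 to 4.25 CPM (median 3.81) in 4OHT siNT, 2.86-fold lower without overlap (log2 change -1.52, SE 0.24, edgeR adjusted p 2.55e-05). It ran from 2.88 to 4.99 CPM (median 3.35) in siSMARCA4. PARP12, which restricts alphaviruses, was called on knockdown and not in senescence. It was at 9.92, 8.14, 5.08, 5.85 and 5.24 CPM in DMSO siNT, ran from 4.60 to 6.39 CPM (median 5.001) in 4OHT siNT and from 5.79 to 9.49 (median 6.72) in siSMARCA4, and its log2 fold change was 0.51 (SE 0.17, edgeR adjusted p 0.0363). Its highest siSMARCA4 values, 9.16 and 9.49 CPM, were those of the V libraries 4-2V and 4-3V, and the call was lost without either of them or without 4OHT siNT 2-1VM, 4-1VM, 2-3VM or 4-3VM (0.42 to 0.51 on the log2 scale, edgeR adjusted p up to 0.0788). PARP12 was not called with the tag as a covariate (0.21, edgeR adjusted p 0.240) or over VM libraries alone (0.29, edgeR adjusted p 0.0899). Its call was also lost over the number 2 libraries alone and with a term for each full replicate label. PARP14 was at 18.7 ± 9.37, 13.8 ± 2.79 and 14.7 ± 3.85 CPM in the 3 groups.

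The remaining genes act in the nucleus, in metabolism or in ways that are less well known. NMI and IFI35 are partner proteins that stabilise one another and also act as extracellular alarm signals. NMI was at 10.7, 9.21, 4.16, 6.39 and 7.13 CPM in DMSO siNT and ran from 0.654 to 1.42 CPM (median 0.848) in 4OHT siNT, 7.90-fold lower (log2 change -2.98, SE 0.25, edgeR adjusted p 8.08e-09), and from 1.02 to 1.81 (median 1.33) in siSMARCA4. IFI35 was at 8.61, 5.97, 3.21, 5.48 and 4.62 CPM in DMSO siNT, ran from 1.07 to 2.27 CPM (median 1.84) in 4OHT siNT and from 1.45 to 4.89 (median 3.57) in siSMARCA4. It was 3.13-fold lower in senescence (log2 change -1.65, SE 0.30, edgeR adjusted p 0.00013) and 1.87-fold higher on knockdown (log2 change 0.90, SE 0.29, edgeR adjusted p 0.0304), where the groups overlapped and the call was lost without 4OHT siNT 2-1VM, 2-2VM or 4-3VM or siSMARCA4 2-1VM, 2-3VM or 4-2VM (0.76 to 0.90 on the log2 scale). Fitted on the libraries of 1 siRNA number, IFI35 was at 1.53 with number 2 and at 0.31 with number 4, the latter not called (edgeR adjusted p 0.62). NMI on knockdown gave 0.53 (SE 0.24), which did not pass the threshold.

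EPSTI1, first known from the exchange between epithelium and stroma, was at 2.06, 1.65, 0.763, 0.833 and 0.671 CPM in DMSO siNT, ran from 0.230 to 0.637 CPM (median 0.485) in 4OHT siNT and from 0.117 to 0.251 (median 0.221) in siSMARCA4. Its log2 fold changes were -1.37 in senescence (SE 0.31, edgeR adjusted p 0.000965) and -1.19 on knockdown (SE 0.33, edgeR adjusted p 0.0141), the latter with 3 siSMARCA4 libraries just above the lowest siNT library. The knockdown call was lost over the number 2 libraries alone and with a term for each full replicate label (edgeR adjusted p up to 0.201). IFI44 was at 4.49, 2.39, 1.77, 1.70 and 2.06 CPM in DMSO siNT and ran from 0.654 to 1.58 CPM (median 1.09) in 4OHT siNT, and its neighbour IFI44L was at 0.908, 0.318, 0.121, 0.697 and 0.604 CPM and ran from 0.0178 to 0.200 (median 0.122). Both were called lower in senescence (log2 fold changes -1.08 and -2.19, edgeR adjusted p 0.00191 and 0.00223), and IFI44L overlapped between groups. Over the number 4 libraries alone, IFI44 was at -0.48 and EPSTI1 at -0.57 in senescence, and neither was called (edgeR adjusted p 0.176 and 0.199). In siSMARCA4, IFI44 ran from 0.568 to 1.24 CPM and IFI44L from 0 to 0.0966.

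CMPK2, a mitochondrial nucleotide kinase, was higher in senescence from a very low start. It was at 0.244, 0.139, 0.191, 0.0194 and 0.0503 CPM in DMSO siNT, on 1 to 14 counts per library, and ran from 0.445 to 0.571 CPM (median 0.521) in 4OHT siNT and from 0.256 to 0.604 (median 0.524) in siSMARCA4. Every 4OHT siNT library lay above every DMSO library (log2 change 1.97, SE 0.38, edgeR adjusted p 0.000237). The change differed between siRNA numbers, at 1.27 with number 2 and 3.89 with number 4 (edgeR adjusted p 0.0404 for the difference). SP110, a nuclear body protein, was at 31.0, 35.9, 32.0, 39.5 and 43.99 CPM in DMSO siNT, ran from 21.998 to 27.9 CPM (median 25.0) in 4OHT siNT and from 23.5 to 32.6 (median 26.5) in siSMARCA4, and was 1.46-fold lower in senescence (edgeR adjusted p 0.000142). XAF1, a pro-apoptotic protein, was at 0.850 ± 0.452 CPM (SD, n = 5), 0.811 ± 0.226 (n = 6) and 0.845 ± 0.248 (n = 6) in the 3 groups. LGALS3BP, a secreted glycoprotein, was at 199 ± 22.6, 192 ± 23.0 and 185 ± 41.0 CPM.

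**Figure D3:**
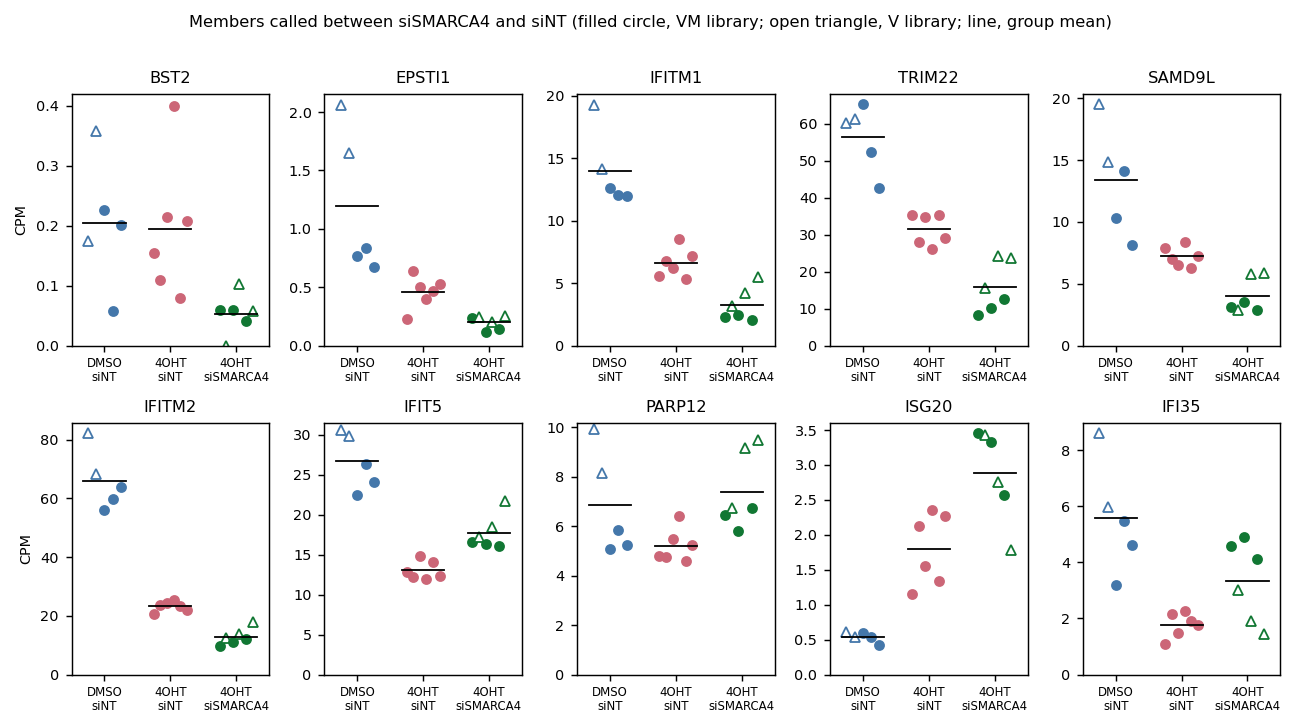
CPM in each library for the 10 genes called between siSMARCA4 and siNT, from the largest fall to the largest rise; circles are VM libraries, triangles V libraries and lines group means. Libraries of the 4OHT groups are apart for TRIM22, SAMD9L, IFITM2 and IFIT5 and overlap for the other 6.

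Some genes were too low for firm statements. In all 3 groups, 9 of the 47 genes had a mean under 1 CPM, namely IFI27, IFI44L, MX2, OASL, BST2, XAF1, HERC5, CMPK2 and RTP4. EPSTI1, IFIT1 and IFIT2 had means under 1 CPM in both 4OHT groups. There EPSTI1 rested on 12 to 29 counts per library in 4OHT siNT and 6 to 14 in siSMARCA4. Per kilobase of annotated exon, the levels in DMSO siNT spanned from 0.0294 CPM for CMPK2, among the genes tested, to 74.9 for IFITM3, followed by LGALS3BP at 58.1, IFITM2 at 41.1 and ISG15 at 41.0. In 4OHT siNT, LGALS3BP at 56.2 and IFITM3 at 51.3 CPM per kilobase led, ahead of ISG15 at 42.3 and IFITM2 at 14.4. The exon length joins all annotated transcripts, so a gene with long alternative exons is read as lower than it may be.

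The V and VM tags moved with these genes, and they were unevenly spread over the groups. All 6 libraries of 4OHT siNT were VM, as were 3 of 5 in DMSO siNT and 3 of 6 in siSMARCA4. In DMSO siNT, both V libraries lay above all 3 VM libraries for 27 of the 46 genes (58.7%), against 14.1% of all genes tested. In siSMARCA4 the 3 V libraries lay above the 3 VM libraries for 10 genes (21.7%; 11.7% of all genes) and below them for 5 (10.9%; 10.6%). DMSO siNT 2-1V alone was the highest of the 5 DMSO libraries for 36 genes (78.3%), where it was so for 22.6% of all genes. In a fit with a term for each group and tag, added after the data were seen, V was called higher than VM in DMSO siNT for IFIT3 (0.69 on the log2 scale), PARP9 (1.09) and DTX3L (0.88), where 0.411% of all genes were called higher and 0.354% lower. In siSMARCA4 V was called higher for TRIM22 (1.02) and IFITM1 (0.93) and lower for IFI35 (-1.09) and USP18 (-0.76), where 2.28% and 1.42% of all genes were called. SMARCA4 itself was 0.54 higher on the log2 scale in V than in VM within siSMARCA4 (SE 0.12, edgeR adjusted p 0.0201). In DMSO siNT the same difference was -0.23 (SE 0.13) and did not pass. Since no 4OHT siNT library was V, the strength of the knockdown could not be measured within V. In the fit with a term for each group and tag, V minus VM in siSMARCA4 was above 0 for 35 of the 46 genes and below 0 for 11. A value above 0 was thus the common sign over the set. Of the 10 genes called on knockdown, V minus VM in siSMARCA4 had the opposite sign to the knockdown for IFI35, ISG20, BST2, EPSTI1, IFITM1, TRIM22, SAMD9L and IFITM2 and the same sign for PARP12 (0.42) and IFIT5 (0.23). Among these differences those of IFI35, IFITM1 and TRIM22 were called. The part of the SMARCA4 level in them was not tested. Of the siSMARCA4 V libraries 1 has siRNA number 2 and 2 have number 4, and of the VM libraries 2 have number 2 and 1 has number 4. Both DMSO V libraries carry siRNA number 2, so tag and number cannot be fully told apart in that group.

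The tag was also entered as a covariate in edgeR, and the test of its V minus VM term was added after the data were seen. Such a fit gives every group the same V minus VM difference. That difference had a median of 0.38 on the log2 scale over the 46 genes and 0.01 over all genes. It was called for 9 of them, STAT2, XAF1, PARP9, PARP12, PARP14, DTX3L, UBE2L6, IFITM1 and IFITM2, each higher in V, where 1.25% of all genes were called higher and 0.698% lower. In the same fit the knockdown comparison called 11 genes lower rather than 6: IFIT1, MX1, STAT2, HERC6 and UBE2L6 joined the 6 named above. It called 4 higher, with USP18 in place of PARP12, and 15.6% of all genes lower and 11.8% higher. STAT2, for example, went from -0.30 to -0.52 (edgeR adjusted p 0.0011) and MX1 from -0.92 to -1.48 (edgeR adjusted p 0.0096), while PARP12 went from 0.51 to 0.21. Over the VM libraries alone, 4 genes were called higher and 9 lower of 45 tested, against 11.6% and 15.3% of all genes, and IFIT1 and HERC6 were not among the 9.

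**Figure D4:**
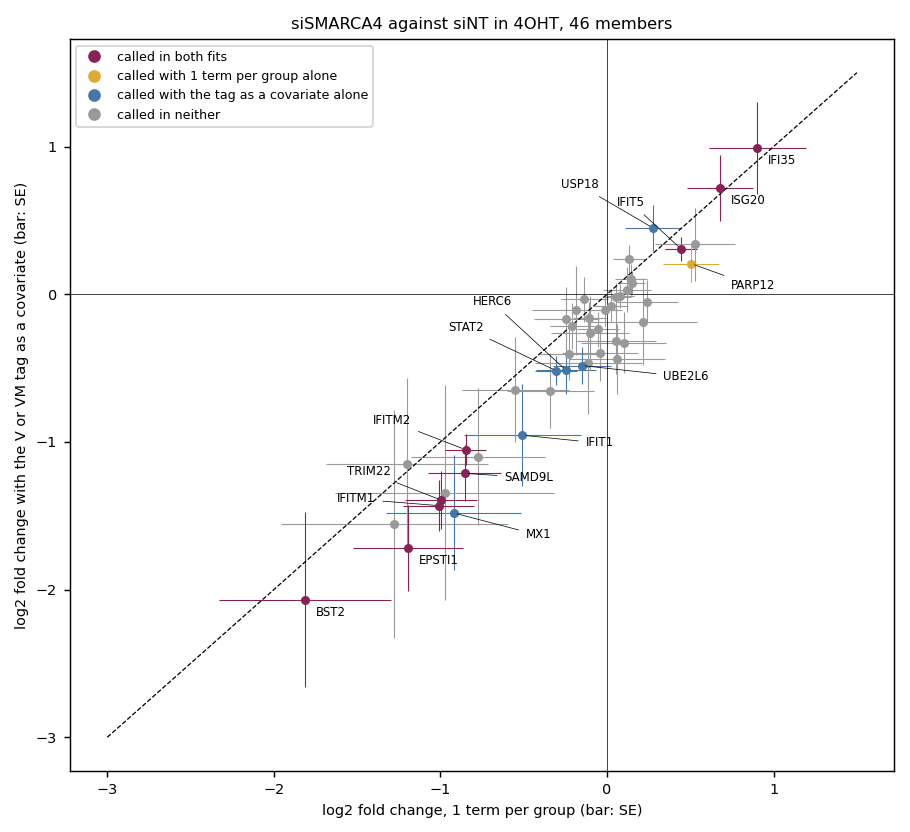
Log2 fold change of siSMARCA4 against siNT for the 46 genes, from the fit with 1 term per group (horizontal) and from the fit with the V or VM tag as a covariate (vertical), with SE as bars and the line of equality dashed. Most points lie below the line, where the covariate gives the lower value, and 5 genes were called lower with the tag and not without it, and PARP12 lost its call.

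The senescence comparison changed less when the tag was taken into account. With the tag as a covariate it called 23 genes lower and 6 higher, with a median of -0.46 (27.1% and 26.5% of all genes), and over VM libraries alone 22 lower and 6 higher of 45, with a median of -0.44 (27.0% and 23.5%). STAT2 was the gene added on the higher side in both. IFI6 and MX2 were no longer called in either, and IFI44L was not among those tested over VM libraries alone. Within siRNA number 2, which holds both DMSO V libraries, 30 genes were called lower and 5 higher (24.7% and 25.2% of all genes). Within number 4, where all libraries are VM, 19 were lower and 7 higher (25.8% and 24.6%).

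The knockdown was then read within each siRNA number. With number 2, edgeR called IFI35 and ISG20 higher and HERC6, SAMD9L, TRIM22, IFITM1 and IFITM2 lower, where 7.12% of all genes were called higher and 11.9% lower. With number 4 it called IFIT5, PARP12 and IFNAR1 higher and EPSTI1, IFITM1 and IFITM2 lower (8.84% and 7.22%). IFITM1 and IFITM2 were thus called lower with both numbers, at -1.12 and -0.93 for IFITM1 and -1.02 and -0.70 for IFITM2 with numbers 2 and 4. Fitted on the number 4 libraries alone, IFITM1 was at -0.90 and not called. TRIM22 was at -1.63 with number 2 and -0.46 with number 4, and SAMD9L at -1.14 and -0.64, but among the 46 genes the difference between numbers passed the threshold for ISG20 alone. In senescence the difference between numbers passed for MX1, IRF9 and CMPK2, each with the lower value under number 2. Of all genes, 0.709% were called in that direction and 1.39% in the other. The set leaned the same way, with the lower value under number 2 for 42 of the 46 genes. The median difference was -0.64 over the set and -0.003 over all genes. In senescence the set's median was -0.87 with number 2 and -0.45 with number 4. Both DMSO V libraries carry number 2, so tag and number are only partly separable here.

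Relatives within a family were set against one another as log2 ratios of CPM + 0.1 inside each library, which cancels the library's scale. The pairs were chosen after the calls above were known, and several join a called gene to a relative that was not called, so the ratios restate those values within each library and are given without a test. Between siNT and siSMARCA4, IFITM1 over IFITM3 went from -4.46 ± 0.223 to -5.498 ± 0.456 and IFITM2 over IFITM3 from -2.65 ± 0.0712 to -3.50 ± 0.186 (SD, n = 6 in each group). TRIM21 over TRIM22 went from -1.78 ± 0.221 to -0.55 ± 0.678 and SAMD9 over SAMD9L from -1.13 ± 0.271 to -0.47 ± 0.296. The libraries of both groups did not overlap for these 4 ratios, and they overlapped for IFIT1 over IFIT5 (a difference of -0.97) and IFIT3 over IFIT5 (-0.32).

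Between DMSO siNT and 4OHT siNT, IFIT2 over IFIT3 differed by -2.76 and IFIT1 over IFIT3 by -2.18, both without overlap, while IFIT3 over IFIT5 differed by 0.11 with overlap. SAMD9 over SAMD9L differed by -0.92 in senescence, opposite in sign to its difference on knockdown. IFITM2 over IFITM3 differed by -0.96, in the same direction as on knockdown, and PARP9 over DTX3L by -0.37.

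**Figure D5:**
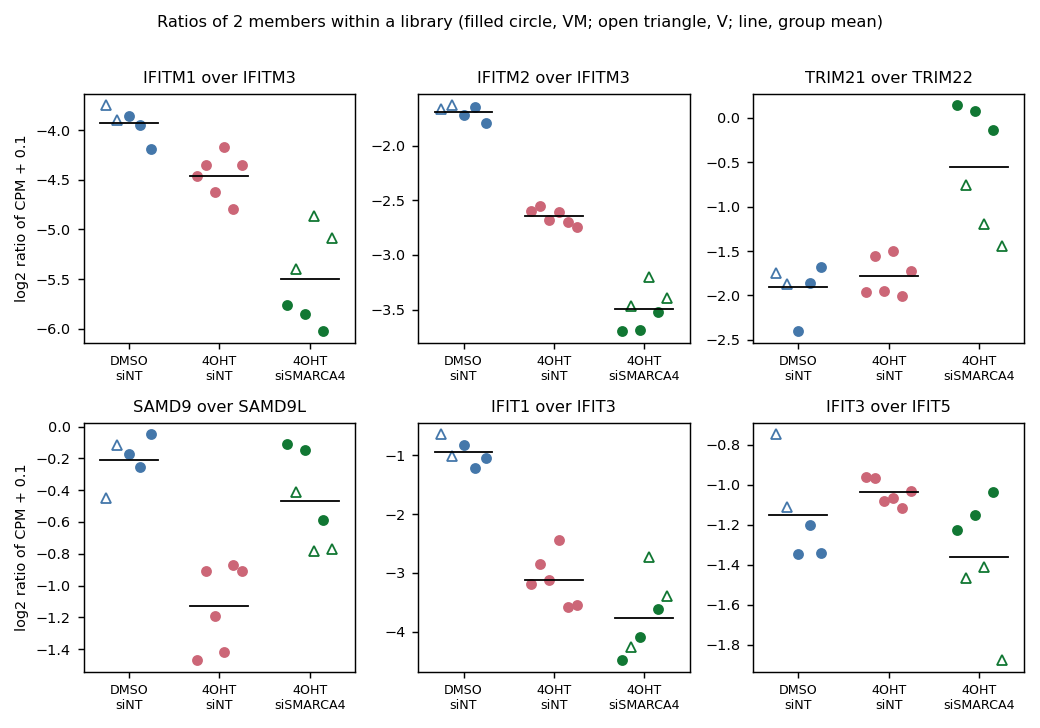
Log2 ratio of CPM + 0.1 of 2 relatives in each library for 6 pairs, with VM libraries as circles, V libraries as triangles and group means as lines. The 4OHT groups do not overlap for IFITM1 over IFITM3, IFITM2 over IFITM3, TRIM21 over TRIM22 and SAMD9 over SAMD9L.

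Set beside DMSO, the siSMARCA4 cells showed 27 genes lower and 5 higher, against 28.6% and 26.5% of all genes, with a median log2 fold change of -0.58 over the set. Treatment and siRNA differ together in this comparison. The 5 genes higher were ISG20, IRF1, CMPK2, IFNAR1 and IFNAR2. For 19 of the genes lower the libraries did not overlap with DMSO, where 19.9% of all genes did not overlap.

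The call of a gene was set beside the motif in its window. Among genes with a window, it was present for 16 of 20 that were lower in senescence, 1 of 4 that were higher and 8 of 13 that were not called. On knockdown it was present for 3 of 4 that were higher, 3 of 4 that were lower and 19 of 29 that were not called. The higher gene with a match in senescence was ISG20, and IFI35, SAMD9L, PARP9 and SP110 were the lower ones without.

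Other genes of the pathway were counted from lists chosen with these data in view. Of 11 interferon genes, 5 were at 0 in all 17 libraries and IFNE alone passed the filter. IFNE, an epithelial type I interferon, was at a mean of 0.83 CPM in DMSO siNT, 4.25 in 4OHT siNT and 2.77 in siSMARCA4, with a log2 fold change of 2.36 in senescence (edgeR adjusted p 9.0e-06) and -0.61 on knockdown (edgeR adjusted p 0.141). IFNB1 reached at most 2 counts in any library. Of 18 further receptor and signalling genes, 15 were tested: 8 were called higher and 3 lower in senescence, and 2 higher and 2 lower on knockdown. Over all genes tested the shares were 27.0% and 27.4% in senescence and 10.4% and 13.8% on knockdown, so 2 of 15 in each direction was near the background. The kinase TBK1, which activates the inducers of interferon, was 0.39 higher on the log2 scale on knockdown (edgeR adjusted p 0.004), and its relative IKBKE was lower, at -0.61 (edgeR adjusted p 0.00137). Their libraries did not overlap. IL10RB was called higher (0.23, edgeR adjusted p 0.0478) and the receptor kinase TYK2 lower (-0.29, edgeR adjusted p 0.0258).

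Of 41 further ISGs, 33 were tested, and 15 were called lower and 6 higher in senescence, against 27.4% and 27.0% of all genes. On knockdown the counts were no higher than the background of 13.8% lower and 10.4% higher: 3 were called lower, LAP3 (-0.40), TRAFD1 (-0.37) and SP100 (-0.31), and 3 higher, TYMP (0.83), PHF11 (0.65) and APOL2 (0.45), with edgeR adjusted p from 0.000226 to 0.0433. The median log2 fold change of this list was -0.23 in senescence and -0.07 on knockdown. OAS1, OAS2, RSAD2 and IDO1, ISGs with strong induction in many cells, were too low to be tested, at no more than 0.373 CPM in any library.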

How the data were processed

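RNA of IMR90 ER:RAS cells was enriched for poly(A) and sequenced as stranded paired reads. The authors trimmed reads with cutadapt 4.7, aligned them with HISAT2 2.2.1, keeping up to 100 alignments per pair, and counted genes and repeats with TElocal in its multi mode, which shares reads that align in several places. The deposited files hold these estimated counts, not normalized, 1 file per library. Positions came from GENCODE 44 (GRCh38), in which 62700 of the 62754 gene IDs were found.

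Here genes and repeat subfamilies were filtered together (edgeR filterByExpr, minimum count 10, minimum total 15), scaled by TMM and fitted by edgeR 4.0.16 (R 4.3.3) with its quasi-likelihood test, with 1 term per group over all 17 libraries. P-values were adjusted by the Benjamini-Hochberg method over the 19473 genes tested, and a gene was called at an adjusted p under 0.05. Ratios of relatives, chosen after the data were seen, are given without a test. The edgeR and DESeq2 1.42.0 fits were tested on simulated data that held no effect of tag or siRNA number, so that test does not cover such effects. The genes given in full were those called in either comparison, and the rest are given by mean ± SD. The members and lists were chosen with earlier results of these data known. Alternatives covered normalization, filters, DESeq2, tags, siRNA numbers, blocks and each library left out. Every deposited library was used, and no pair of libraries looked like a repeat of 1 library.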

Additional observations from a re-analysis of the deposited data

Results flagged for a closer look

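Within groups, 5 of the 138 sets of values for 1 gene in 1 group held a library that stood apart by Dixon's criterion, which chance meets in about 1 set in 20. IFIT2 was at 1.05 CPM in 4OHT siNT 4-2VM, against 0.518 to 0.659 in the other libraries of that group. MX2 was at 0.441 CPM in 4OHT siNT 2-1VM, against 0.0568 to 0.198. In DMSO siNT 2-1V, IFI44 was at 4.49 CPM against 1.70 to 2.39 and LGALS3BP at 237.7 CPM against 180.8 to 197.0. IFITM3 was at 189.7 CPM in siSMARCA4 4-3V, against 126.8 to 145.3.

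The effect of 4 genes differed between siRNA numbers by edgeR's interaction term. For ISG20 the knockdown effect was 1.34 on the log2 scale with number 2 and 0.07 with number 4, a difference of 1.27 (SE 0.26, edgeR adjusted p 0.0326). In senescence MX1 was at -1.28 with number 2 and 1.31 with number 4, a difference of -2.59 (SE 0.59, edgeR adjusted p 0.0428). CMPK2 was at 1.27 and 3.89, a difference of -2.62 (SE 0.58, edgeR adjusted p 0.0404), and IRF9 at -0.43 and 0.17, a difference of -0.60 (SE 0.14, edgeR adjusted p 0.0458). Both V libraries of DMSO siNT carry number 2, so in senescence the number and the tag are only partly separable, through DMSO siNT 2-2VM. In that library CMPK2 was at 0.191 CPM, within the 0.139 and 0.244 CPM of the V libraries and above the 0.0194 and 0.0503 CPM of number 4. MX1 was at 0.833 CPM there, nearer to the 0.697 and 0.520 CPM of number 4 than to the 2.22 and 1.71 CPM of the V libraries.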

How the results depend on the processing

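None of the 10 genes called on knockdown or the 30 called in senescence changed direction under the alternatives run for them. Single genes of the other lists and of siSMARCA4 against DMSO siNT were not refitted for this. Of the 30 calls in senescence, 22 were kept in every alternative fit and 28 with each library left out, IFI6 and MX2 being the exceptions to the latter. This tally leaves out the rule of a fold change above 1.5. Of the 22, IFNAR2 (1.44-fold higher), IFITM3 (1.46-fold lower) and SP110 (1.46-fold lower) did not meet that rule. With siRNA number 4 alone the calls of IFI6, IFI44, MX2, SAMD9L, EPSTI1, IFITM1 and IFNAR1 were lost, and under the replicate block by full label those of IFI6, IFI44 (-0.43), MX2, EPSTI1 (-0.74) and PLSCR1 (-0.39). CMPK2 ran from 1.23 with number 2 alone to 3.84 with number 4 alone, and PARP9 was at -0.91 under that block. Of the 10 calls on knockdown, IFITM2 alone was kept in every alternative and 7 with each library left out, the exceptions being IFI35, PARP12 and BST2. With number 4 alone the knockdown calls of IFI35, ISG20, BST2, IFITM1, SAMD9L and TRIM22 (-0.43) were lost, with number 2 alone those of IFIT5, PARP12, BST2 and EPSTI1, and under the replicate block by full label those of IFIT5 (0.29), ISG20, PARP12, BST2 and EPSTI1. On knockdown, the 4 genes called higher became 2 with siRNA number 4 alone, 2 with a fold change above 1.5 required as well and 2 to 4 with 1 library left out, the low end being reached without 4OHT siNT 2-1VM or 4-3VM. The 6 called lower became 2 with number 4 alone, 11 with the tag as a covariate and 5 to 8 with 1 library left out. With a filter of at least 1 CPM in at least 5 libraries they became 4. In senescence a fold change above 1.5 left 3 genes higher, and number 2 alone moved the median to -0.86, and to -0.88 for siSMARCA4 against DMSO siNT. DESeq2 called 2 genes for the difference between siRNA numbers, where edgeR called 1. The full labels did not pair the libraries: deviations of same-labelled libraries correlated at -0.105 to 0.297 between the 4OHT groups and -0.45 to 0.208 between DMSO siNT and 4OHT siNT. Pairs that shared the replicate number but not the full label ran from -0.349 to 0.531. Pairs with different replicate numbers ran from -0.526 to 0.606. A replicate block by full label gave 2 genes higher on knockdown and 17 lower in siSMARCA4 against DMSO siNT (27 without it), and a replicate block by number gave 4 higher and 6 lower on knockdown. The causes were not tested. Depth limits the 9 genes under 1 CPM in all groups, and in the 4OHT groups EPSTI1, IFIT1 and IFIT2 as well.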
